A study of Homo sapiens with 22 samples.

Results

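The beta-globin cluster of K562 cells was followed through treatment with PMA, with the regions of 4 chromatin tables that lie inside chr11:5200000-5330000 (GRCh38). The window holds the globin genes HBB, HBD, HBG1, HBG2 and HBE1, the locus control region on the HBE1 side and the CTCF sites at both ends of the locus. All regions inside these bounds were taken by position, with no measured value used, though earlier results of these data were known. They number 63 of 409446 regions, with 20 in the H3K27ac table, 26 in the Jun table, 4 in the CTCF table and 13 in the Rad21 table. Of these, 62 passed the filter on low counts. The Jun region left out is chr11:5213705-5213904.

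K562 is a human leukemia line with erythroid features, and PMA (a phorbol ester that activates protein kinase C) drives it toward a megakaryocyte-like state. Cells received 25 nM PMA for 0, 6 or 72 h, were fixed with 1% formaldehyde for 10 min and were divided into aliquots of 500000. The labels abbreviate the assay as CNR, read here as CUT&RUN, which releases and sequences DNA beside the protein that an antibody binds. H3K27ac, Jun and CTCF were each profiled at all 3 times, while Rad21 was profiled only before treatment and at 72 h, in 22 libraries that make 11 groups of 2, with no genetic change named in the labels. Whether the 2 libraries of a group came from separate cultures is not stated, so p-values measure only the spread between these libraries.

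The beta-like globin genes lie in the order of their use in development, from HBE1 (embryonic) through HBG2 and HBG1 (fetal) to HBD and HBB (adult), and HBBP1 is a pseudogene between HBG1 and HBD. The locus control region upstream of HBE1 is a row of nuclease-hypersensitive enhancer sites (HS1 to HS5) that contacts the gene in use and drives it in red cell precursors. HS2 is a strong enhancer with a tandem AP-1 and NF-E2 motif, and HS5 and 3'HS1 carry CTCF sites at the ends of the chromatin domain. CTCF stops the loop-extruding cohesin ring, of which Rad21 is a subunit. Jun is a subunit of the factor AP-1, and H3K27ac is a histone acetylation found at active promoters and enhancers. K562 cells are known for embryonic and fetal globin, with little HBB.

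The Jun, H3K27ac and Rad21 regions at HBD each cover the start of that gene, and HBD is the only 1 of the 5 globin genes with an entry in the RefSeq promoter table used here (GRCh38.p14). Its 250 bases before the start are shown because a Jun region lies on them. They lie at chr11:5234484-5234733, minus strand. The capitals mark an AP-1 motif (TGANTCA) and a match to the letters CCAAT at -153 from the start.

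HBD promoter: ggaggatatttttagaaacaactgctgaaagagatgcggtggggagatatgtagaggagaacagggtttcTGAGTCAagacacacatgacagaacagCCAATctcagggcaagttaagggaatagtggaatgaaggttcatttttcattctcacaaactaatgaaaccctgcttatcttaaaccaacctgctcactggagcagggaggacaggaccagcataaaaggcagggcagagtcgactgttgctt

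The AP-1 motif, the letters CCAAT, the CACCC box that KLF factors bind and the GATA motif were searched on both strands. Their matches did not overlap each other. TGANTCA was found once, as TGAGTCA at chr11:5234657-5234663, and is present in the same 250 bases of 6.6% of 35116 promoters. In the 4 libraries with a Jun peak at HBD, the strongest peak had its summit between position 5234569 and position 5234693, with a median of 5234640. CCAAT was found at chr11:5234632-5234636 (32.0% of promoters), GATA at 3 places (45.6%) and CACCC at none (54.7%). A match is a description of the letters and not a measured site.

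Libraries differed in their total counts in regions, which are not the sequencing depth. Totals ran from 12634261 to 27266241 for H3K27ac, from 4766421 to 18883962 for Jun, from 2553677 to 6068421 for CTCF and from 4398797 to 7285286 for Rad21. Counts inside the window were 6321 to 16261, 909 to 3911, 256 to 590 and 521 to 1172 in the same order. Levels are CPM, counts scaled to the library's total in regions after TMM adjustment, and a region was called where edgeR's quasi-likelihood test gave a Benjamini-Hochberg adjusted p under 0.05 over all regions of the table. The contrasts of 6 and 72 h with 0 h share the 0 h libraries. In bulk cells, fewer cells with a mark and less of it per cell cannot be told apart.

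**Figure D1:**
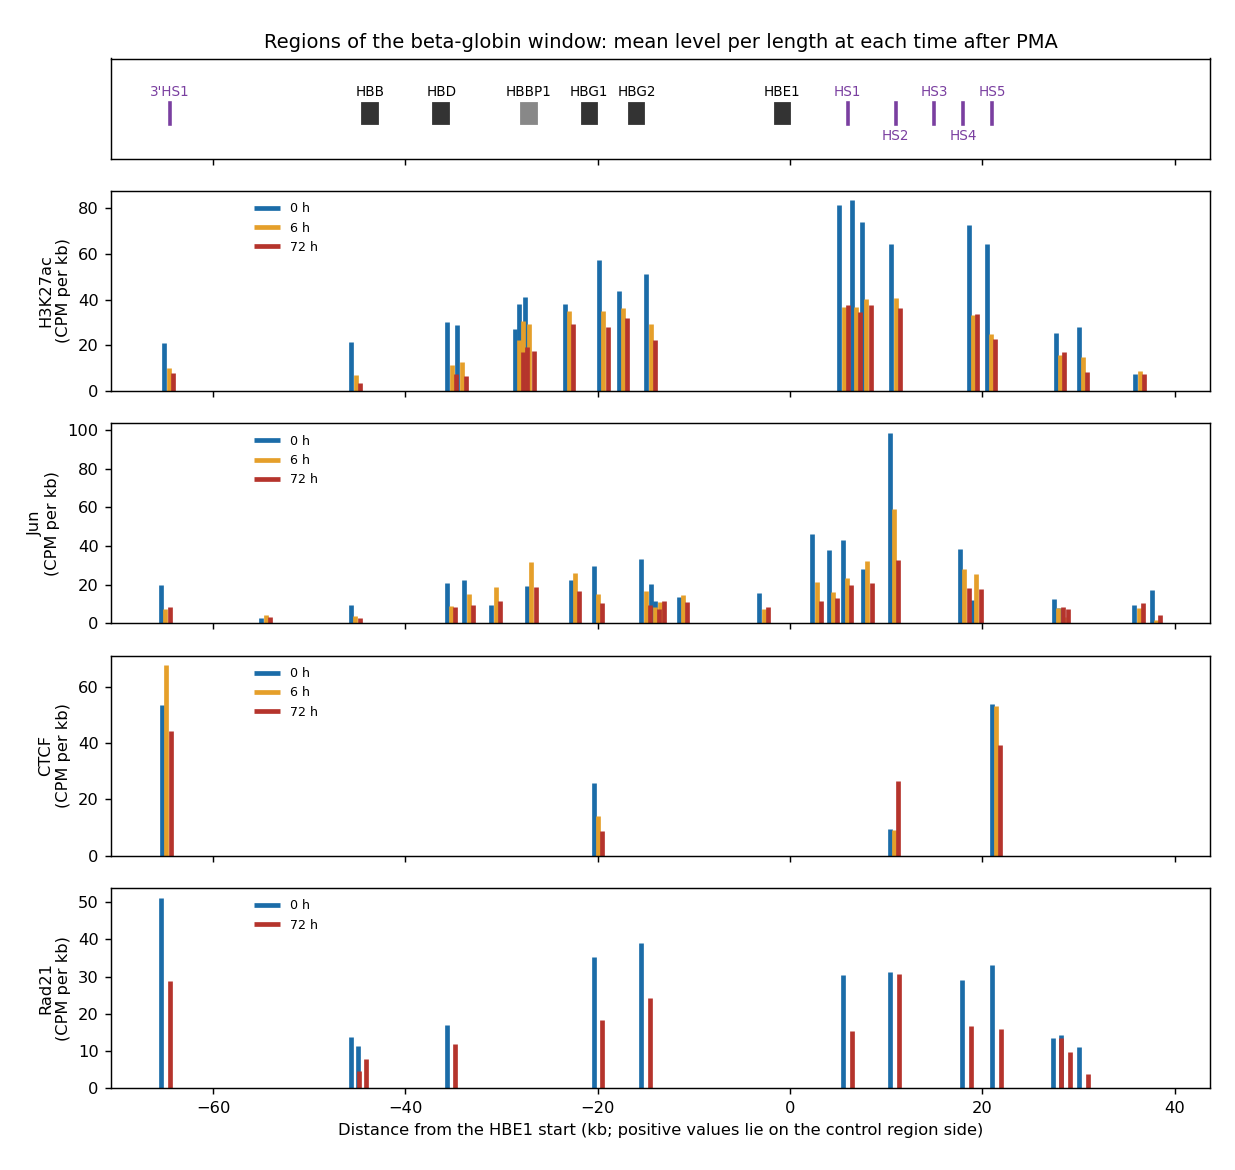
Mean level of each region in CPM per kb (y axis) against its distance from the HBE1 start in kb (x axis), for 4 antibodies at 0, 6 and 72 h (Rad21 at 0 and 72 h), with 1 bar per region and time, the 3 times set slightly apart. The top row gives the genes and hypersensitive sites. The tallest Jun bar is HS2 at 98.5 CPM per kb at 0 h, and CTCF stands mainly at the ends of the locus. Bars overlap where regions lie close together.

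H3K27ac fell over nearly the whole locus. At 6 h, 15 of 20 regions were lower than at 0 h and none was higher, in a table where 58.6% of all regions were called, 26.3% lower and 32.3% higher. At 72 h, 19 of 20 were lower than at 0 h and none was higher, against 81.5% called, 38.1% lower and 43.4% higher in the table. The member median was -0.84 (log2) at 6 h and -1.11 at 72 h, and the median of all regions was 0.20 and 0.18. These medians depend on the scaling. When factors came only from regions where all libraries have a peak (peak-based scaling), the member medians were -0.48 and -0.47 and those of all regions 0.55 and 0.82. The calls were then 14 lower and 2 higher at 6 h, and 13 lower and 2 higher at 72 h. Of all regions, 32.5% lay below 0 at 6 h and 34.8% at 72 h under this scaling, against 44.1% and 47.2% under TMM. The share of all regions called under it is not given here. A scaling moves every region alike, so the distance from the median of all regions, -1.03 and -1.29, does not test it. With only regions of a mean count of at least 50 that distance was -0.78 and -0.92. The region at chr11:5305884-5306689, beyond HS5, was the only one not called at 72 h. Its level lay between 5.2 and 7.2 CPM in all 6 libraries.

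Among the genes, the largest loss was at HBB, which encodes adult beta-globin. The region chr11:5223915-5225620 reaches 157 bp into the 3' end of the gene, so most of it lies beyond the gene's end. It had 36.7 and 36.1 CPM at 0 h (647 and 685 counts), 11.1 and 13.4 at 6 h (158 and 272 counts) and 6.7 and 5.6 at 72 h (185 and 153 counts). The 3 times did not overlap, and each later time was lower. The log2 fold change was -1.56 ± 0.131 (SE) at 6 h and -2.57 ± 0.135 at 72 h, which is 5.93 times lower (edgeR, adjusted p = 4.02e-15). All 14 alternative settings and left-out libraries kept this call, and the 72 h value ran from -2.71 to -1.93 over them.

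HBD encodes the delta chain of the minor adult hemoglobin. The region over its start had 40.1 and 37.7 CPM at 0 h, 15.1 and 13.9 at 6 h, then 9.0 and 10.2 at 72 h. As at HBB, the 3 times stood apart and the level was lower at each step. The log2 fold change was -1.43 ± 0.122 (SE) at 6 h and -2.01 ± 0.122 at 72 h (edgeR, adjusted p = 6.37e-14). The small neighbour chr11:5235658-5235901, 1175 bp upstream of the HBD start, had 7.1 and 7.0 CPM at 0 h, 2.9 and 3.3 at 6 h, then 2.0 and 1.1 at 72 h. It was called lower as well, with a log2 fold change of -2.15 at 72 h. The region was named after its values were seen, because the authors' deposited table labels it upLate.

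The gamma-globin genes HBG1 and HBG2 encode the fetal chain and are near-identical copies, so reads could be split between them and they are given together. The region chr11:5250024-5251048 lies 167 bp upstream of HBG1, and chr11:5254767-5256141 covers the start of HBG2. Together they held 131 and 127 CPM at 0 h, 73.0 and 78.8 at 6 h, then 58.0 and 61.2 at 72 h. Both later times lay below 0 h without overlap. For the HBG2 region the log2 fold change was -0.80 ± 0.103 (SE) at 6 h and -1.19 ± 0.102 at 72 h (edgeR, adjusted p = 7.36e-11), a 2.28-fold drop beside the 4.04-fold drop at HBD. Under peak-based scaling it was -0.55 at 72 h, still called. Within a library, the HBD region had 0.573 and 0.536 times the counts of the HBG2 region at 0 h, 0.378 and 0.344 times at 6 h, then 0.300 and 0.324 times at 72 h. This ratio needs no scaling between libraries, and at both later times it lay below 0 h in both libraries.

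HBBP1, the pseudogene, holds 3 regions, and the tallest, chr11:5242599-5243088, went from 20.8 and 19.3 CPM at 0 h to 14.9 and 13.7 at 6 h, then 10.0 and 7.1 at 72 h. Its log2 fold change was -0.49 at 6 h (called in 11 of 14 alternatives) and -1.23 ± 0.148 (SE) at 72 h (edgeR, adjusted p = 3.34e-08). The smallest called loss at 72 h was at chr11:5246269-5247674, 595 bp beyond the 3' end of HBG1, with 56.8 and 50.2 CPM at 0 h, 43.9 and 54.5 at 6 h, then 39.1 and 43.0 at 72 h. The 6 h libraries overlapped those at 0 h and the 72 h libraries lay below them. Its log2 fold change of -0.38 at 72 h depends on the scaling: under peak-based scaling it was 0.25 and called higher. HBE1, the embryonic gene, is overlapped by no region in any of the 4 tables.

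Per kb, H3K27ac was highest in the control region at 0 h. The highest region, chr11:5276586-5277009, lies beside the main HS1 region and stood at 83.5 CPM per kb. HS1 itself, chr11:5274872-5276163, stood at 81.4, the next region chr11:5277532-5278244 at 73.8, HS4 at 72.7, HS2 at 64.5 and HS5 at 64.4, beside 51.0 at HBG2, 30.3 at HBD and 21.3 at HBB. No region of the table lies at the position of HS3.

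At HS4, chr11:5287692-5290218, the level was 184 and 184 CPM at 0 h, 75.3 and 92.3 at 6 h, then 78.9 and 92.2 at 72 h. The later times overlapped each other and both lay far below 0 h, with log2 fold changes of -1.13 ± 0.116 (SE) and -1.10 ± 0.115 (edgeR, adjusted p = 2.69e-09 at 72 h). HS1 behaved alike in size, at 106 and 104 CPM, then 42.2 and 53.3, then 44.3 and 53.3, with log2 fold changes of -1.13 and -1.11. Under peak-based scaling both sites were at -0.47 at 72 h, still called. HS5, where an insulator site lies, changed by -1.37 and -1.51, the largest loss of the control region. HS2, the AP-1 enhancer, changed by -0.67 and -0.83, the smallest loss there, from 28.6 and 31.6 CPM at 0 h to 19.7 and 18.3 at 6 h, then 17.8 and 16.0 at 72 h. Under peak-based scaling the HS2 change at 72 h was -0.19 and not called (adjusted p = 0.116). Deposited H3K27ac peaks at HS2 went the other way, with 0 libraries at 0 h, 1 at 6 h and 2 at 72 h. At HS5 the peaks were in 2, 0 and 0 libraries, and at HS1 and HS4 in 2 at each time.

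The course after 6 h differed in its calls between the genes and the control region. From 6 to 72 h, 11 of 20 regions were lower and none higher, where 63.8% of the table was called, 30.8% lower and 33.1% higher. Under peak-based scaling 5 were lower and 3 higher, and the member median went from -0.29 to -0.01. Of all regions, 39.4% lay below 0 under that scaling and 49.3% under TMM. The shares of all regions called under peak-based scaling and the other alternatives are not given here. On the gene side 9 of 10 regions were lower, and all 10 had log2 differences between -1.004 at HBB and -0.19, the last at the region not called. On the flanks 2 of 4 were lower, with changes from -0.87 to 0.13. In the control region 0 of 6 were called, with changes from -0.16 to 0.03, and by DESeq2 the whole window had 6 calls. It had 6 without replicate 1 of 72 h and 7 without replicate 2 of 6 h. The difference between the genes and the control region was tested only through their shares of the counts. The share of the window's H3K27ac counts in the control region was 51.8% and 52.9% at 0 h, 44.5% and 46.5% at 6 h, then 49.6% and 52.2% at 72 h. On the gene side it was 36.6% and 37.5% at 0 h, 42.2% and 43.2% at 6 h, then 35.9% and 37.6% at 72 h. The 6 h libraries thus held the lowest shares of the control region and the highest of the gene side. An exact permutation test over the 6 libraries gave p = 0.133 for the control region and 0.2 for the gene side (in any direction, adjusted p = 0.4 for each over 12 such tests). The smallest p this design allows is 0.067, so it could not reach 0.05.

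Among the genes the largest loss was at HBB, so its ratio to HS4 does not stand for the gene side. This ratio of counts within a library needs no scaling. It was 0.200 and 0.197 at 0 h, 0.147 and 0.145 at 6 h, then 0.0848 and 0.0605 at 72 h. The 3 times did not overlap. The ratio of HBG2 to HS4 was 0.381 and 0.383 at 0 h, 0.532 and 0.438 at 6 h, then 0.381 and 0.343 at 72 h, highest at 6 h. At 72 h the first library stood at the 0 h value and the second below it.

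**Figure D2:**
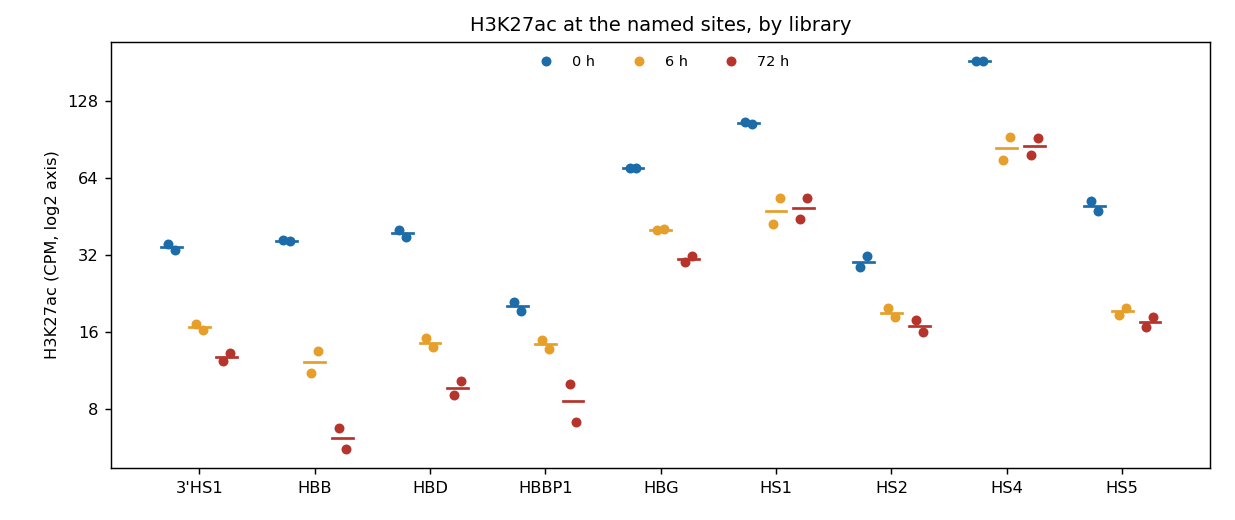
H3K27ac level in CPM on a log2 axis at each named site, with 1 point per library, 2 libraries per time and a line at their mean. HBG is the region at the HBG2 start. At HBB, HBD and HBG the level is lower at each later time, while at HS1 and HS4 the 6 and 72 h libraries overlap.

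Jun was highest at HS2 in CPM at 0 h, and per kb at each time. The region chr11:5280430-5281092 had 67.4 and 63.2 CPM at 0 h (462 and 441 counts), 37.7 and 40.7 at 6 h (166 and 223 counts) and 20.1 and 23.2 at 72 h (422 and 547 counts). The 3 times did not overlap, with 0 h the highest and 72 h the lowest. The raw counts at 72 h overlap those at 0 h, and the 72 h libraries have larger totals. The log2 fold change was -0.73 ± 0.188 (SE) at 6 h (edgeR, adjusted p = 0.00603) and -1.59 ± 0.183 at 72 h (adjusted p = 5.19e-07), and from 6 to 72 h it was -0.86 (adjusted p = 0.0021). At 72 h against 0 h all 15 alternatives called it lower, with values from -1.79 to -0.82. Every Jun library had a deposited peak at HS2, with the strongest summit between position 5280702 and position 5280823 in all 6. In mean CPM the longer HS4 region had 39.5 at 6 h and 25.6 at 72 h, beside 39.2 and 21.6 at HS2.

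In all, Jun was called lower at 12 of 25 tested regions and higher at 2 at 6 h, where 25.3% of the table was called, 12.2% lower and 13.1% higher. At 72 h it was lower at 14 of 25 and higher at none, where 53.7% was called, 25.7% lower and 28% higher. The split at 72 h was 12 lower and 3 higher under total-count scaling and 8 lower and 4 higher under peak-based scaling. Of all Jun regions at 72 h, 45.4% lay below 0 under TMM, 30.8% under total-count and 25.7% under peak-based scaling. The member median was -0.73 and -1.07, against 0.06 and 0.17 over all regions. From 6 to 72 h, 7 of 25 were lower, against 26.2% called, 13.5% lower and 12.7% higher, and this step rests on the scaling. Of all Jun regions, 49.0% lay below 0 from 6 to 72 h under TMM, 32.4% under total-count and 23.7% under peak-based scaling. The shares of all Jun regions called under the alternatives in this paragraph are not given here. With total counts 0 regions were called, under peak-based scaling 2 were higher and 0 lower, and by DESeq2 1 was lower. Without replicate 1 of 72 h 0 were called, without replicate 2 of 72 h 1 and without replicate 2 of 6 h 4. The count at 6 h against 0 h was 7 without replicate 2 of 0 h.

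Jun totals and composition moved with time as well. The mitochondrial share of counts was 24.0% and 27.7% at 0 h, 21.3% and 18.1% at 6 h, then 9.07% and 8.58% at 72 h. Without mitochondrial regions Jun was called lower at 14 regions and higher at 1 at 72 h, and the part of this share in the results was not otherwise tested. The median change of all Jun regions at 72 h was 0.17 under TMM, 0.73 under total-count and 0.94 under peak-based scaling. The member median at 72 h was -1.07, -0.50 and -0.29 under the same 3 scalings.

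At the gamma-globin starts, the Jun regions chr11:5249768-5250196 and chr11:5254734-5255149 together held 26.4 and 26.9 CPM at 0 h, 13.6 and 13.3 at 6 h, then 7.56 and 9.30 at 72 h. The times did not overlap. The HBG2 region fell by 0.99 at 6 h and by 1.85 at 72 h on the log2 scale (SE 0.239, edgeR adjusted p = 2.10e-06), and the HBG1 region by 0.98 and 1.48. At HBD, over the sequence printed above, Jun had 11.2 and 13.2 CPM at 0 h, 3.6 and 6.6 at 6 h, then 5.1 and 4.5 at 72 h. Both later times lay below 0 h and overlapped each other. The log2 fold change was -1.23 ± 0.294 (SE) and -1.36 ± 0.246 (edgeR, adjusted p = 9.74e-05 at 72 h).

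In the rest of the control region, HS4, chr11:5287369-5288772, had 47.8 and 59.6 CPM at 0 h, 32.2 and 46.7 at 6 h, then 23.5 and 27.6 at 72 h. The change at 6 h, -0.44, did not pass the test (adjusted p = 0.133), while that at 72 h did (-1.07 ± 0.202, adjusted p = 1.46e-04, edgeR). HS1 changed by -0.86 and -1.11, both called. Under peak-based scaling, the 72 h changes were -0.29 at HS4 and -0.33 at HS1, and neither was called. In the control region 5 of 7 regions were lower at 72 h, where 25.7% of the table was lower. The largest change there, -1.99 (edgeR, adjusted p = 2.27e-06), was at chr11:5272594-5272829, which is at no named site. It lay between -2.09 and -1.22 over the alternatives that left out no single library. This region was named after its values were seen. No Jun region was assigned to HS5. The pseudogene HBBP1 had 7.6 and 12.5 CPM at 0 h, 9.8 and 23.4 at 6 h, then 9.3 and 10.4 at 72 h. These groups overlapped, and neither contrast with 0 h passed the test. Deposited Jun peaks did not follow the calls at every site. They were present in 0, 1 and 2 libraries at 0, 6 and 72 h at HBBP1, and in 1, 1 and 2 at HS1. At the HBG1 start they were in 2, 0 and 0 libraries. Under a −log10 q of at least 10 they were in 0, 1 and 2 libraries at HBBP1 and in 0, 0 and 2 at HS1. At the HBG1 start they were then in 0 at every time.

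The 2 Jun regions called higher at 6 h were named after their values were seen. Beside HS4, chr11:5289119-5289521 went from 5.0 and 4.6 CPM at 0 h to 10.9 and 9.9 at 6 h, then 6.4 and 8.0 at 72 h. The 6 h libraries were the highest. Its log2 fold change at 6 h was 1.11 (edgeR, adjusted p = 0.0054), and all 15 alternatives called it. Between HBD and HBBP1, chr11:5239149-5239489 went from 3.2 and 3.2 CPM to 5.7 and 7.1 and then 3.9 and 3.8. Its 6 h call (1.02, adjusted p = 0.0312) held in 7 of 14 alternatives.

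Of the window's Jun counts, the control region held 56.5% and 56.1% at 0 h, 54.3% and 55.9% at 6 h, then 48.7% and 51.5% at 72 h. The 72 h libraries had the lowest shares and the 0 h libraries the highest. The exact permutation p was 0.067, the smallest the design allows, and 0.4 after adjustment over the 12 share tests.

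**Figure D3:**
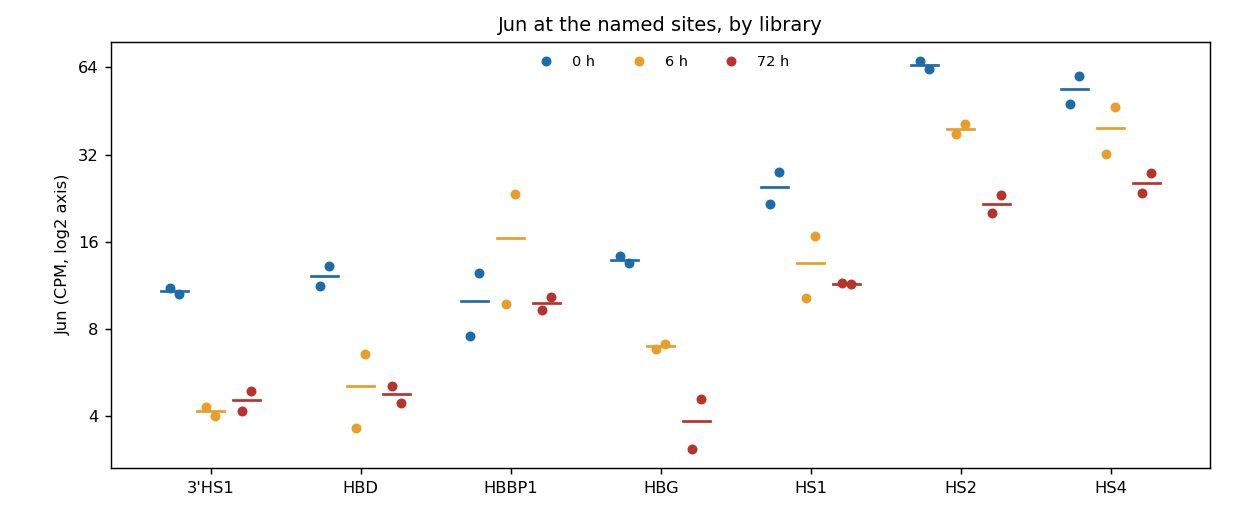
Jun level in CPM on a log2 axis at each named site, with 1 point per library, 2 libraries per time and a line at their mean. HBG is the region at the HBG2 start. HS2 is the highest site at 0 h and is lower at 6 and 72 h without overlap, while the libraries at HBBP1 overlap.

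**Figure D4:**
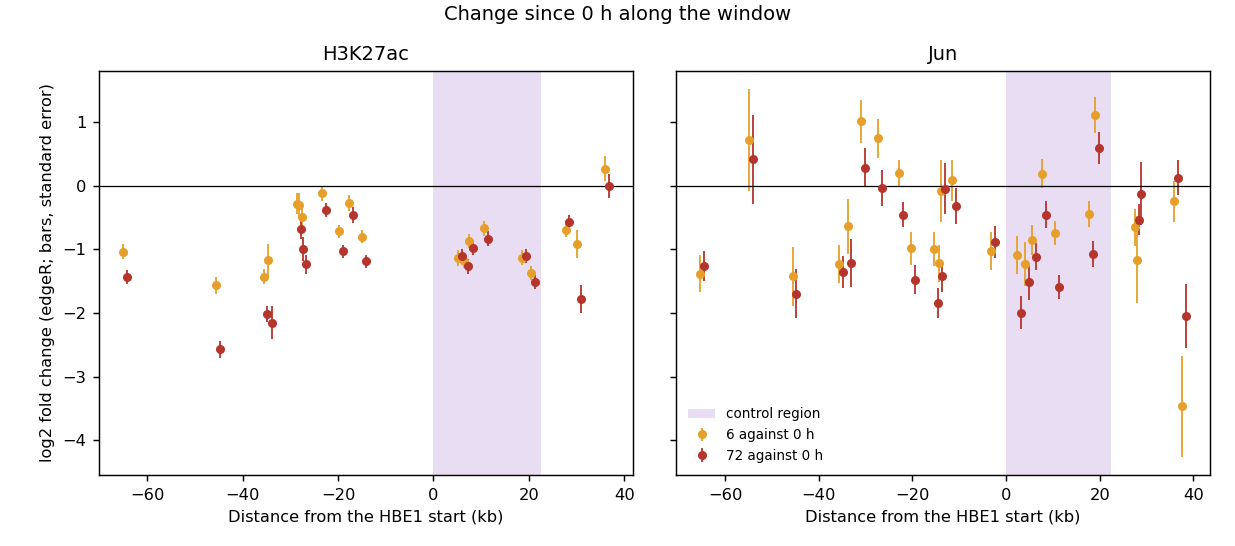
log2 fold change of every tested region against 0 h (y axis, bars are the standard error) by distance from the HBE1 start in kb (x axis), for H3K27ac on the left and Jun on the right, with the control region shaded. The H3K27ac change at 72 h lies farthest from that at 6 h at HBB and at the small region upstream of HBD. Inside the shaded band its 6 and 72 h values are close. For Jun the 72 h values lie below those at 6 h in the band.

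CTCF was concentrated at the ends of the locus. At 3'HS1, chr11:5204676-5205525, it had 45.4 and 45.8 CPM at 0 h, 60.5 and 54.5 at 6 h, then 33.9 and 41.6 at 72 h. At HS5, chr11:5290999-5291714, it had 34.2 and 42.9, then 30.8 and 45.6, then 26.3 and 29.9. The 72 h libraries were the lowest at both sites. The log2 fold changes at 72 h were -0.27 ± 0.253 (SE) and -0.45 ± 0.267 and did not pass the test (edgeR, adjusted p = 0.494 and 0.275). Both sites had a deposited peak in 6 of 6 libraries, with strongest summits within 168 bp of each other at 3'HS1 and within 153 bp at HS5.

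No CTCF region of the window was called by edgeR in any of the 3 contrasts, where 2.65% of the table was called at 6 h, 6.79% at 72 h and 2.18% from 6 to 72 h. DESeq2 called none either. At 72 h against 0 h edgeR called 2 when either 6 h library was left out, and from 6 to 72 h it called 1 without replicate 1 of 6 h. The 2 sites nearest to a call at 72 h moved apart. HS2, chr11:5280573-5280934, had 9 and 13 counts at 0 h (2.3 and 4.7 CPM), 17 and 3 at 6 h (5.5 and 1.2 CPM) and 40 and 72 at 72 h (9.2 and 10.1 CPM). The 72 h libraries lay above the other 4. The fitted log2 difference was 1.51 ± 0.531 (SE, adjusted p = 0.0817, edgeR), and of 13 alternatives 4 called it, with adjusted p up to 0.341. A deposited CTCF peak was present there in both libraries at 72 h and in none at 0 or 6 h, with summits at most 24 bp apart. Under a −log10 q of at least 10 it was present in 1 library at 72 h.

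At HBG1, chr11:5249825-5250107, CTCF had 22 and 25 counts at 0 h (5.6 and 9.0 CPM), 16 and 7 at 6 h and 16 and 9 at 72 h (3.7 and 1.3 CPM). The fitted log2 difference at 72 h was -1.62 ± 0.584 (SE, adjusted p = 0.0887, edgeR), and 3 of 13 alternatives called it. Within a library, HS2 held 0.0672 and 0.109 times the CTCF counts of HS5 at 0 h, 0.179 and 0.0268 times at 6 h, then 0.351 and 0.338 times at 72 h. The 72 h ratios were the highest and close together, and the 6 h ratios were the most spread. CTCF totals at 72 h were 3866685 and 6068421, and the mitochondrial share was 9.55% and 9.63% there against 17.8% and 22.1% at 0 h.

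Rad21 was lower at 72 h at 5 of 13 regions and higher at none, where 23.3% of the table was called, 7.91% lower and 15.4% higher. In 11 of 13 both 72 h libraries lay below both at 0 h, as did 32.6% of all regions. The member median was -0.81 (log2) against -0.05 over all regions. The count of calls is not steady: 0 were called without replicate 1 of 0 h, 0 without replicate 1 of 72 h, 1 without replicate 2 of 72 h and 2 by DESeq2.

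Per kb, Rad21 at 0 h was highest at 3'HS1 with 51.3 CPM per kb, beside 39.1 at HBG2, 35.2 at HBG1 and 33.0 at HS5. At HS5, chr11:5290968-5291889, it had 33.0 and 27.9 CPM at 0 h and 12.7 and 16.6 at 72 h. At 3'HS1, chr11:5204655-5205329, it had 37.1 and 32.1 and then 20.4 and 18.5. Neither site's groups overlapped. The log2 fold changes were -1.07 ± 0.251 (SE, adjusted p = 0.0038) and -0.83 ± 0.238 (adjusted p = 0.0145, edgeR), called in 9 of 11 and 8 of 11 alternatives. Without replicate 1 of 0 h 3'HS1 was at -0.51 and not called. The strongest Rad21 summits, between position 5205068 and position 5205181 and between 5291309 and 5291532, lie in the CTCF regions of these sites.

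Inside the control region, HS1 went from 16.98 and 12.03 CPM to 7.1 and 7.4 and HS4 from 23.0 and 16.3 to 12.8 and 9.6. Their log2 fold changes were -1.01 (adjusted p = 0.0148) and -0.81 (adjusted p = 0.0341, edgeR), called in 7 of 11 and 6 of 11 alternatives. Without replicate 1 of 0 h they were -0.52 and -0.32 and not called, and without replicate 2 of 72 h HS4 was -0.55 and not called. HS2 stood apart in its values: 17.5 and 14.8 CPM at 0 h and 18.75 and 13.01 at 72 h, which overlapped. Its log2 difference was -0.02 ± 0.264 (SE, adjusted p = 0.969, edgeR), and over the 11 alternatives it lay between -0.26 and 0.32. Whether HS2 differs from its neighbours was looked at only as a ratio within libraries. HS2 had 0.529 and 0.530 times the Rad21 counts of HS5 at 0 h and 1.48 and 0.784 times at 72 h, both above 0 h. With 2 libraries against 2 the smallest exact p is 0.333. A Rad21 peak was present at HS2 in all 4 libraries, while at HS1 and HS4 it was present in both libraries at 0 h and in none at 72 h. Under a −log10 q of at least 10, HS2 had a peak in 1 library at 0 h and 2 at 72 h. HS1 and HS4 then had a peak in 0 libraries at both times.

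On the gene side, the Rad21 regions at the gamma-globin starts together held 36.2 and 28.1 CPM at 0 h and 19.3 and 16.97 at 72 h, without overlap. The HBG1 region was called (-0.93, adjusted p = 0.0164; -0.57 and not called without replicate 1 of 0 h) and the HBG2 region was not (-0.70, adjusted p = 0.0705, edgeR). The copies are near-identical, so the 2 outcomes do not set the genes apart. Both regions had a deposited peak in 2 of 2 libraries at 0 h and in 0 of 2 at 72 h. Under a −log10 q of at least 10, each had a peak in 1 library at 0 h. HBD had 6.3 and 8.2 CPM at 0 h and 5.4 and 4.9 at 72 h, and the region at the end of HBB 2.4 and 2.3 and then 0.9 and 2.3. Neither passed the test (adjusted p = 0.316 and 0.543, edgeR).

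**Figure D5:**
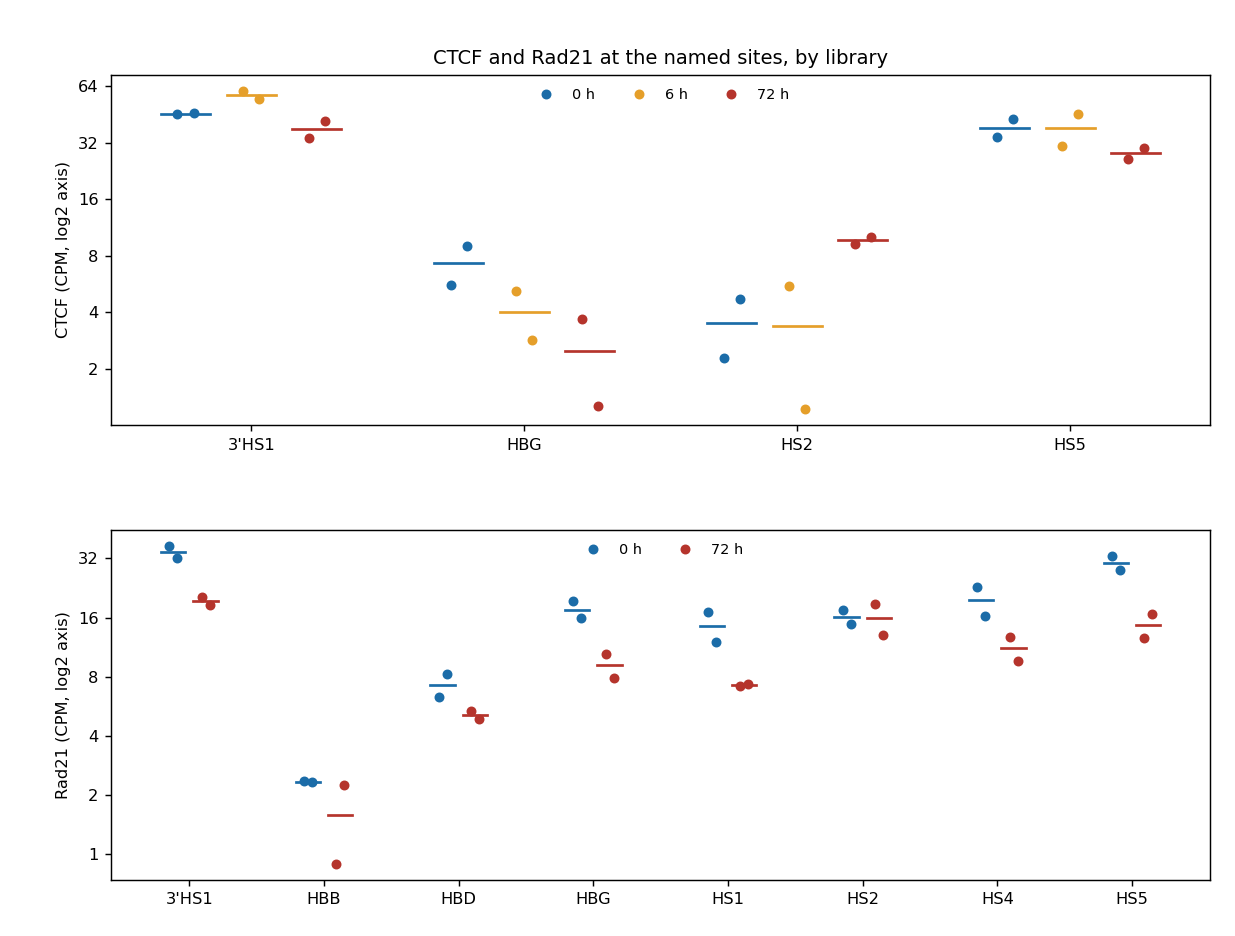
CTCF (top, 0, 6 and 72 h) and Rad21 (bottom, 0 and 72 h) in CPM on a log2 axis at each named site, with 1 point per library, 2 libraries per time and a line at their mean. HBG is the region at the HBG1 start in both. CTCF at HS2 is highest at 72 h, and Rad21 at HS2 overlaps between the times while 3'HS1 and HS5 are lower at 72 h.

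Of the 3 sites with a region in all 4 tables, HS2 had the widest range of values at 72 h against 0 h, with -0.83 for H3K27ac, -1.59 for Jun, 1.51 for CTCF (not called) and -0.02 for Rad21 (not called). At 3'HS1 the same values were -1.43, -1.25, -0.27 (not called) and -0.83. At the gamma-globin starts they were -1.19 for H3K27ac and -1.85 for Jun at HBG2, and -1.62 for CTCF (not called) and -0.93 for Rad21 at HBG1.

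Other genes of the pathway were read from the region with the highest mean level within 2 kb of each gene. Of the alpha-like globin genes on chromosome 16, 4 of 5 had an H3K27ac region (all but HBA2) and all 4 were lower at 6 h and at 72 h, where 26.3% and 38.1% of the table was lower. HBZ, the embryonic zeta chain, had 25.2 and 20.7 CPM at 0 h and 3.33 and 2.19 at 72 h. This was a log2 change of -3.05 ± 0.187 (SE, edgeR, adjusted p = 8.46e-14). HBA1, the adult alpha chain, changed by -1.98. Of 9 factors known to act at the locus, 7 had lower and 2 higher H3K27ac at 6 h, and 5 had lower and 2 higher H3K27ac at 72 h. Called regions made up 58.6% and 81.5% of the table at these times, so the 7 of 9 called at 72 h are near the share of all regions. The largest loss was at KLF1, an activator of HBB, with 68.9 and 68.7 CPM at 0 h and 1.92 and 2.44 at 72 h (log2 -4.98). NFE2, whose product binds the control region, changed by -2.04 at 6 h and -0.95 at 72 h. GATA1, the main erythroid factor, was lower at 6 h (-1.29) and not called at 72 h (-0.21, edgeR adjusted p = 0.0877). MAFK (1.87) and ZBTB7A (0.62), a repressor of gamma-globin, were higher at 72 h. For Jun, 1 of 3 alpha-like genes with a region was lower at 72 h (HBZ, -2.76), where 25.7% of the table was lower, and HBA1 and HBQ1 share 1 region. For CTCF, 0 of 8 factors with a region changed at 6 h, and 1 was higher at 72 h, where 2.65% and 6.79% of the table was called.

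Markers of the line were read in the same way. An H3K27ac region was found for 7 of 8 erythroid genes, all but HBE1, and for 0 of 3 genes of other tissues (ALB, MYOD1 and NEUROD1). Of the 7 erythroid genes, 6 were lower and none higher at 72 h. The 7 include HBG1 and HBG2, which lie in the window and are no separate support, and HBZ, given above. HBG1 was read from chr11:5246269-5247674, the region that was called higher under peak-based scaling. Of 5 megakaryocyte genes, 3 were higher at 72 h (VWF 4.96, GP1BA 1.47 and ITGB3 0.97 on the log2 scale) and 2 were lower (ITGA2B -0.59 and GP9 -0.57), and at 6 h 2 were higher and 2 lower. VWF went from 0.227 and 0.527 CPM at 0 h to 12.3 and 11.8 at 72 h. Among the genes of other blood cells reported here, CD14 had no region, and MPO and CD3E were higher at 72 h (6.30 and 0.60). MPO, a granulocyte gene, went from 0.227 and 0.474 CPM to 27.04 and 29.7. The share of all regions called at 72 h is the 81.5% given above. For these markers and the genes of the pathway, values and calls were read under TMM only. The median of all H3K27ac regions at 72 h was 0.18 under TMM and 0.82 under peak-based scaling. The sign of changes as small as those at ITGA2B, GP9 and GATA1 may therefore depend on the scaling. The markers outside the window were read at the same times as the globin regions, and their part in the globin changes was not tested.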

How the data were processed

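Analysis started from the files the authors deposited: for each antibody a table of raw counts per region and library (whole numbers), which per the file headers also holds the authors' log2 fold changes, adjusted p-values and a label per region, and for each library a peak list with the authors' fold enrichment (a ratio) and −log10 p and q. Per the submitters' processing notes the tools were Trim Galore 0.4.3, BWA 0.7.17, SAMtools 1.9, deepTools 3.0.1, MACS2 and bedtools 2.26. How regions were built and counted, and the control for the peaks, are not given in the sources used here. The notes name both hg19 and hg38, and contig names and the reach of chromosome 20 (to position 64331078) are of the size of hg38. Starts are printed 1-based, 1 above the deposited ones.

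Each antibody was fitted over all its regions and times with edgeR 4.0.16 in R 4.3.3 (filterByExpr by group, TMM, quasi-likelihood, no replicate block). The script was tested on simulated data. DESeq2 1.42.0, other scalings, filters, the replicate block and leaving out each library were alternatives. Scaling on regions with a peak in every library and Jun without mitochondrial regions were chosen after seeing the data. The members, lists and tests were chosen with earlier results of these data known.

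Sites were placed by their textbook distance, with no deposited annotation of them: HS1 to HS5 at 6, 11, 15, 18 and 21 kb upstream of HBE1 and 3'HS1 at 20 kb beyond HBB, each within 1.5 kb of a region's midpoint. The control region runs from the HBE1 start to 22.5 kb upstream. Regions named are those on a globin gene, HBBP1 or a site, with the highest mean CPM in full. Any other named region was chosen after its values were seen. Peaks were matched by an overlap of 1 bp. Low sites have counts as low as 3, which limits their precision. A marker gene of the list for other blood cells is not reported here.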

Additional observations from a re-analysis of the deposited data

How the results depend on the processing

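The total of H3K27ac regions called at 6 and 72 h against 0 h, and of Jun at 72 h, stayed within 1.5 times under every alternative run, but the direction did not. Under peak-based scaling H3K27ac at 72 h went from 19 lower and 0 higher to 13 and 2, and Jun at 72 h from 14 lower and 0 higher to 8 and 4 (12 and 3 under total-count scaling). From 6 to 72 h H3K27ac went from 11 lower and 0 higher to 5 and 3 under peak-based scaling. The shares of all regions below 0 under these scalings are given with the results above. The shares of all regions called under any alternative are not given, so the counts of calls in this section describe the members only. From 6 to 72 h, H3K27ac calls (11) became 7 with RLE size factors, 6 with DESeq2 and 6 to 10 when each library was left out. Jun calls from 6 to 72 h (7) became 0 under total-count scaling, 2 under peak-based scaling, 1 with DESeq2 and 0 to 8 with a library left out, and at 6 h (14) they became 7 to 14. CTCF calls (0) became 1 at 72 h against 0 h and 1 against 6 h under total-count scaling, 2 at 72 h against 0 h when only those times were fitted, and 0 to 2 and 0 to 1 with a library left out. Rad21 calls (5) became 2 with DESeq2 and 0 to 6 with a library left out. With a −log10 q of at least 10, library and region pairs with a peak went from 42 to 19 (H3K27ac), 32 to 19 (Jun) and 20 to 11 (Rad21).

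The replicate numbers are shared labels with only 2 numbers, and deviations of same-numbered libraries correlated between -0.022 and 0.124. With a replicate block the calls were 15, 19 and 11 for H3K27ac, 15, 14 and 7 for Jun, 0 for each CTCF contrast and 6 for Rad21.

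Of the alternatives for named regions, 1031 kept direction and call, 71 lost the call, 32 gained one and 46 changed sign. The sign changes were as follows, in log2. For H3K27ac, the region 595 bp beyond HBG1 changed at 6 h to 0.22 under total-count scaling, 0.24 under peak-based scaling and -0.31 to 0.029 with a library left out, and at 72 h to 0.25 under peak-based scaling. The region at 5305884 changed at 72 h to -0.0025 without a filter, -0.0031 with the replicate block and -0.18 to 0.16 with a library left out. From 6 to 72 h, HS1 changed to -0.077 and HS4 to -0.076 under total-count scaling and to -0.13 to 0.21 and -0.11 to 0.18 with a library left out, and under peak-based scaling HS2 changed to 0.12 and HS5 to 0.14. For Jun, HBBP1 changed at 72 h to 0.54 under total-count scaling, 0.054 with a mean count of at least 50, 0.011 with the replicate block and 0.75 under peak-based scaling. With a library left out HBBP1 ran from -0.13 to 1.22 at 6 h, -0.34 to 0.37 at 72 h and -1.25 to 0.0056 from 6 to 72 h. From 6 to 72 h, Jun at HBD changed to 0.23 and 0.44 and at HS1 to 0.10 and 0.32 (total-count and peak-based scaling), with -0.47 to 0.39 and -0.56 to 0.16 with a library left out. For CTCF at 6 h, HS2 changed to -0.17 under total-count scaling and -1.44 to 0.71 with a library left out, and HS5 to 0.063 with a mean count of at least 50, 0.050 under peak-based scaling, 0.018 when only those times were fitted and -0.32 to 0.24 with a library left out. CTCF at 3'HS1 changed at 72 h to 0.0073 with a mean count of at least 50 and 0.075 under peak-based scaling. Rad21 at HS2 changed to 0.048 without a filter and -0.26 to 0.32 with a library left out, and at HBB it ran from -1.296 to 0.0014. The Rad21 share of the control region, 1.02 percentage points higher at 72 h, ran from -0.71 to 2.76. Except where scaling itself shifts all regions alike, the cause was not tested.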

Other observations

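The labels in the authors' deposited table did not separate the direction of change at these regions. Of the 20 H3K27ac members, the table labels 18 static, 1 downEarly (the HBB region) and 1 upLate (the region 1175 bp upstream of HBD). The authors' own log2 fold change at 72 h for the upLate region is -2.01. Over the whole H3K27ac table, the median of the authors' deposited log2 fold changes at 72 h is 2.82 for downEarly and 2.88 for upLate. Of 7711 downEarly regions in the authors' deposited table, 28.6% have a value below 0, and of 22063 upLate regions 27.2% do. The authors' deposited Rad21 table differs: 100% of its 87 regions labelled down and 0% of its 1898 labelled up have a value below 0. The labels were not used in any comparison here.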
